A study of Arabidopsis thaliana with 12 samples.

Results

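The GDSL-type lipase genes AT1G54020, AT5G45670 and AT5G45950 were followed across inflorescence stems of Arabidopsis thaliana that did or did not carry the wox4-1 mutation. They are 3 of 73 genes of their family with a probe set of their own, and 3 of 22746 probe sets tested. They were picked because earlier results on the same arrays showed them to differ between groups, so their levels and differences are given as a description with no test. Each gene is read by 1 probe set, namely 263161_at for AT1G54020, 248912_at for AT5G45670 and 248921_at for AT5G45950. The study set wild type of the ecotype Columbia against plants labelled wox4-1 mutant, for which the labels give no ecotype, and sampled each genotype at the base of the stem and in its first internode. Each of the 4 groups had 3 biological replicates, and each replicate was 1 pool of 13 to 17 stems from plants 49 to 58 days old and 15 to 20 cm tall. All plants had 3 weeks of short days with 8 h of light and then long days with 16 h of light, and fragments of 0.5 cm came from the base or from 1.5 to 2.0 cm above the rosette. WOX4 encodes a homeobox transcription factor of the cambium, the dividing layer from which the stem thickens, and no probe set carried its name here, so the genotype labels were not checked by its level.

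GDSL-type lipases are esterases named after a Gly-Asp-Ser-Leu stretch that holds the serine of the active site. They cut or transfer acyl groups on lipids and other esters, and plants have many of them, most with a signal for secretion. Members with a known role include cutin synthases, which join the monomers of the cuticle, enzymes that build or remove suberin, and GLIP1, which takes part in defence. The roles of AT1G54020, AT5G45670 and AT5G45950 themselves are not described here beyond membership of the family.

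Expression is given as the log2 value that the authors derived per probe set with RMA, so a difference of 1 is a doubling of the signal. The 12 array medians ranged from 5.56 to 5.71, and replicates had a Pearson r of 0.992 to 0.997 with each other. Control probe sets for a bacterial trp gene read 2.53 to 3.31 over the 12 arrays, and levels in that range cannot be ordered. The array of wox4-1 internode replicate 2 stood apart in RNA quality, with a difference between its 3′ and 5′ actin controls of 2.26 against 1.22 to 1.51 on the other 11. At the base this difference also moved with genotype, with 1.44 to 1.51 in wild type and 1.22 to 1.33 in wox4-1. The 25S ribosomal RNA control moved with both factors: it read 9.81 to 9.90 at the wild-type base, 8.93 to 9.29 at the wox4-1 base, 8.71 to 9.09 in the wild-type internode and 8.07 to 8.41 in the wox4-1 internode. The part of either control in the results below was not tested. Of 5 listed genes of green tissue 4 were measured, and all 4 were lower at the base in both genotypes (limma adjusted p under 0.05), with a median log2 difference of -0.88 in wild type and -0.80 in wox4-1, beside 10.1% and 13% of all probe sets that were lower. The phloem sugar transporter gene SWEET11, the 1 measured of 5 phloem genes, was lower at the base by a log2 difference of -1.31 in wild type and -1.13 in wox4-1 (limma adjusted p 0.00251 and 0.00559). The root hair genes EXPA7 and EXPA18 read at most 3.88 and 3.52, near the low end. Named probe sets covered none of 12 listed xylem genes and none of 5 epidermis genes, so these parts of the tissue labels were not checked. In such fragments a change in the number of cells of a type and in RNA per cell cannot be told apart.

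AT5G45950 was a gene of the stem base in both genotypes, and its level at the base was higher still in wox4-1. At the wild-type base its 3 arrays read 5.91, 5.99 and 5.99, and at the wox4-1 base 7.17, 6.74 and 6.74. In the wild-type internode they read 3.90, 3.82 and 3.67, and in the wox4-1 internode 3.99, 4.31 and 3.98. The order was wox4-1 base, wild-type base, wox4-1 internode and wild-type internode, and no group overlapped its neighbour. The internode groups came within 0.08 of each other.

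Base over internode, the mean of AT5G45950 was higher by log2 2.16 in wild type (SE 0.12, 95% interval 1.90 to 2.43), which is 4.48-fold. In wox4-1 the same difference was 2.79 (SE 0.12, interval 2.52 to 3.06), or 6.91-fold. At the base the wox4-1 mean of 6.88 (SD 0.25, n = 3) lay 0.92 above the wild-type mean of 5.96 (SD 0.05, n = 3), with an interval of 0.66 to 1.19. In the internode the genotypes differed by 0.30 (interval 0.03 to 0.56), and by 0.19 without wox4-1 internode replicate 2, the array of poorer RNA quality. The difference between the genotype effects at the base and in the internode was 0.63 (SE 0.18, interval 0.25 to 1.00).

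AT5G45670 had the same order of positions at a lower signal. It read 3.89, 3.56 and 3.75 at the wild-type base and 4.94, 4.87 and 4.59 at the wox4-1 base. In the internode it read 3.16, 3.14 and 3.00 in wild type and 3.11, 3.16 and 3.23 in wox4-1. All 6 internode arrays thus lay within the range of the bacterial trp controls, while all 6 base arrays lay above it, and the base groups did not overlap.

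Because the internode levels of AT5G45670 cannot be ordered, its base is set against the highest trp control value of 3.31, which gives a lower bound. The base was at least 1.34-fold higher in wild type (log2 0.43) and at least 2.82-fold higher in wox4-1 (log2 1.49). The fitted differences, which are no bounds, were log2 0.63 (SE 0.11) and 1.64 (SE 0.11). At the base, where both genotypes were above the controls, the wox4-1 mean of 4.80 (SD 0.19, n = 3) exceeded the wild-type mean of 3.74 (SD 0.17, n = 3) by 1.07 (SE 0.11, interval 0.84 to 1.30), which is 2.1-fold. In the internode no genotype difference can be read at this signal. The difference between the genotype effects, 1.00 (SE 0.15), rests on those internode levels and so has no firm size.

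**Figure D1:**
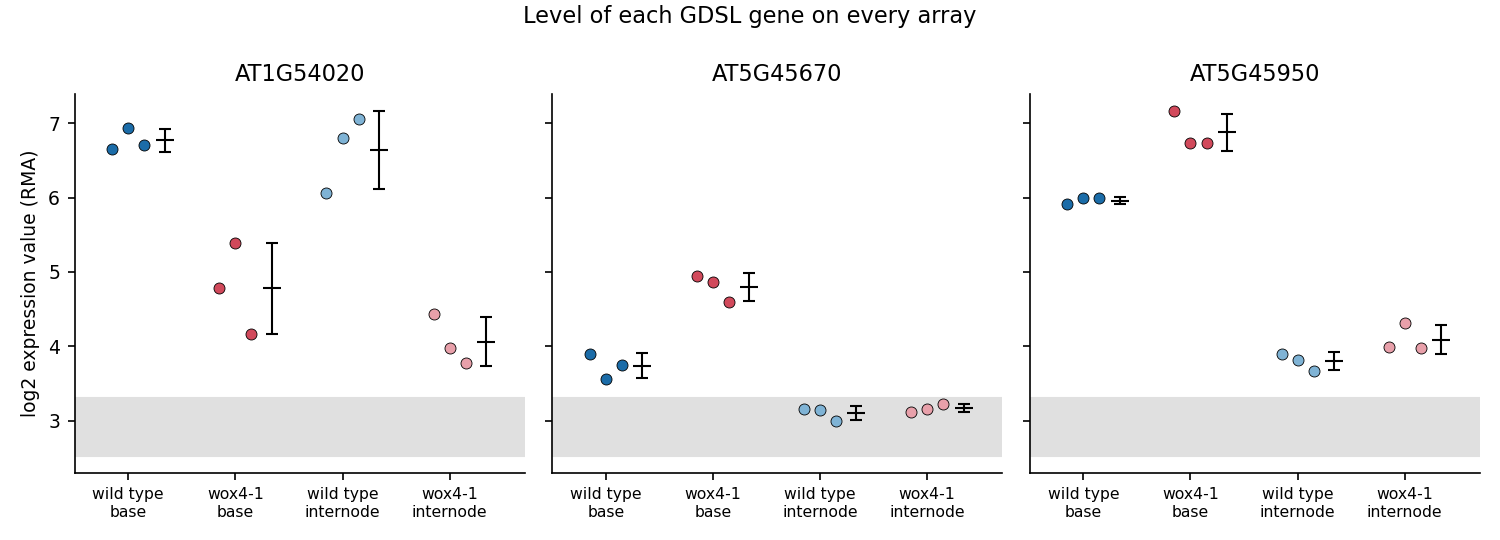
Log2 expression value (y axis) of AT1G54020, AT5G45670 and AT5G45950 on each of the 12 arrays, in the 4 groups of genotype and position (x axis). Points are arrays, the black bars beside them are the group mean and SD (n = 3), and the grey band is the range of the bacterial trp controls, 2.53 to 3.31. AT1G54020 separates by genotype, AT5G45950 and AT5G45670 by position, and the internode arrays of AT5G45670 lie in the band.

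AT1G54020 followed genotype more than position, and in the opposite direction: it was lower in wox4-1 at both positions. At the base the wild-type arrays read 6.65, 6.94 and 6.71 and the wox4-1 arrays 4.78, 5.39 and 4.17. In the internode the wild-type arrays read 6.06, 6.80 and 7.06 and the wox4-1 arrays 4.43, 3.98 and 3.77. Every wild-type array was above every wox4-1 array, whereas base and internode overlapped within each genotype.

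In wox4-1 the mean of AT1G54020 fell short of wild type by a log2 difference of -1.99 at the base (SE 0.29, interval -2.60 to -1.37), a level 3.97-fold lower. In the internode the difference was -2.58 (SE 0.29, interval -3.20 to -1.96), or 5.98-fold lower, and in size it ranked 1 among the 22746 probe sets of that comparison. Since the gene was picked for such differences, nothing is read from this rank. Without wox4-1 internode replicate 2 the difference was -2.54. The SDs of AT1G54020 over replicates were 0.15 and 0.61 at the base and 0.52 and 0.33 in the internode, for wild type and wox4-1 in turn. In each group but the wild-type base, where AT5G45670 had an SD of 0.17, they were larger than those of AT5G45670 and AT5G45950.

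With position AT1G54020 differed by 0.13 in wild type (SE 0.29, interval -0.49 to 0.75), less than the spread between replicates. In wox4-1 it differed by 0.72 (SE 0.29, interval 0.10 to 1.34), the base being higher on average while the lowest base array (4.17) lay under the highest internode array (4.43). The difference between its genotype effects was 0.59 (SE 0.40), with an interval of -0.28 to 1.46 that spans 0.

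**Figure D2:**
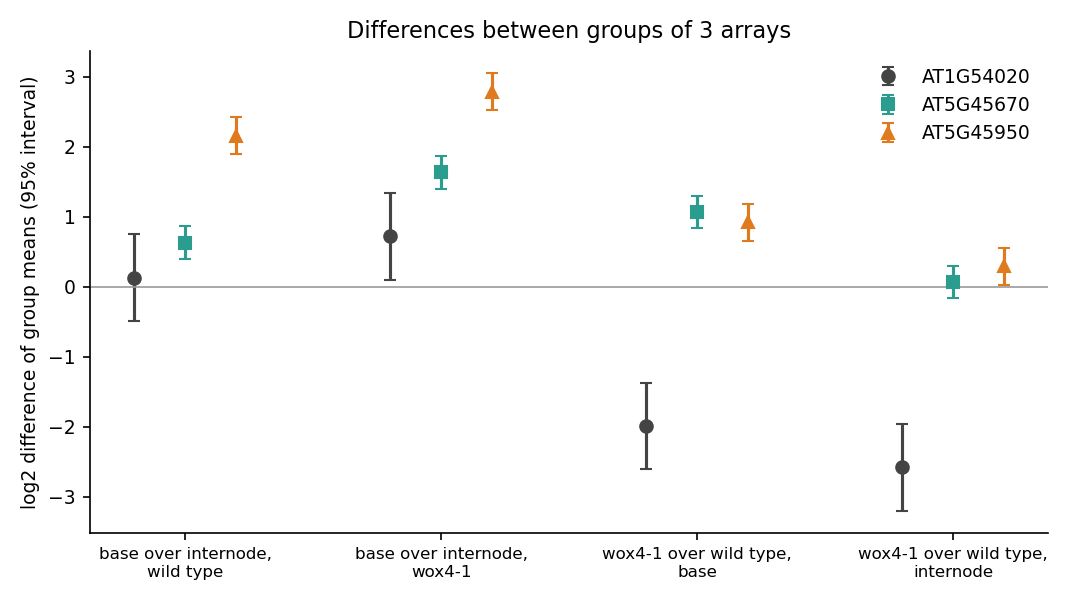
Log2 difference between group means (y axis) for 4 comparisons of 3 arrays with 3 (x axis), with the 95% interval from limma's moderated fit as bars. AT1G54020 lies at -1.99 and -2.58 in the genotype comparisons and near 0 for position in wild type, while AT5G45950 lies at 2.16 and 2.79 for position. The 2 position values of AT5G45670, 0.63 and 1.64, are fitted to internode levels within the range of the trp controls, and its bounds are 0.43 and 1.49.

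Over the 12 arrays the profiles of AT5G45670 and AT5G45950 had a Pearson r of 0.93. AT1G54020 had an r of -0.19 with AT5G45670 and of -0.05 with AT5G45950. These values describe 4 groups of arrays that share their normalization and are no test. Those with AT5G45670 include its internode arrays, which lie within the range of the trp controls. By the threshold used for all probe sets (limma adjusted p under 0.05) all 3 genes passed between genotypes at the base, AT5G45670 and AT5G45950 upwards and AT1G54020 downwards, where 2.52% of all probe sets passed as higher and 2.51% as lower. In the internode AT1G54020 passed as lower, as did 0.132% of all. For the difference between the genotype effects none of the 3 passed, against 0.0044% of all. AT5G45670 and AT5G45950 passed as higher at the base in wild type, against 9.6% of all, and in wox4-1, against 11.4%. Groups that did not overlap were as follows over all probe sets: higher at the base in 20.4% (wild type) and 21.1% (wox4-1), higher in wox4-1 in 13.3% (base) and 7.89% (internode), and lower in wox4-1 in 11.6% and 6.79%. Since the genes were chosen by such values, nothing is read from these counts.

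The rest of the family was set beside these genes. Of 110 genes listed as GDSL-type or closely related SGNH hydrolases, 73 had a probe set of their own, and 43 of these had a mean under log2 4. At the base of wild type 12 of the 73 were higher than in the internode and 4 lower (limma adjusted p under 0.05), or 16.4% and 5.48%, beside 9.6% and 10.1% of all probe sets. The median difference of the family was -0.00, against 0.01 over all probe sets. Without AT1G54020, AT5G45670 and AT5G45950, 10 of 70 were higher and 4 lower. Among the 30 family genes with a mean of at least log2 4, 9 were higher and 5 lower. Under that filter 29.3% of all probe sets passed, and 49% of those were higher.

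AT1G29660 and AT3G11210 rose the most after AT5G45950. AT1G29660 read 8.49, 8.20 and 8.69 at the wild-type base and 6.88, 6.89 and 7.03 in the internode, a rise of 1.53 (SE 0.11, limma adjusted p 5.92e-07). AT3G11210 rose by 1.53 too (SE 0.14, adjusted p 7.88e-06), from an internode mean of 3.87 to 5.39. AT3G16370 rose by 1.24 (SE 0.13, adjusted p 2.2e-05). In each of these genes the groups of arrays did not overlap, which held for 20.4% of all probe sets in this direction.

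In wox4-1 17 of the 73 family genes were higher at the base and 6 lower, or 23.3% and 8.22%, beside 11.4% and 13% of all probe sets. With each array centred on its median 26 were higher and 4 lower, and the share of higher calls over all probe sets went from 46.8% to 67.5%. The share of all probe sets past the threshold went from 24.5% to 30.9%. Among the 30 family genes with a mean of at least log2 4, 13 were higher and 9 lower. Under that filter 34.7% of all probe sets passed, and 44.5% of those were higher. All 12 genes that rose in wild type rose in wox4-1 as well, which is 70.6% of the 17. The comparisons share no array, but they share each gene's estimate of spread from the fit, so their calls are not independent. The 12 include AT5G45670 and AT5G45950, which were picked from these data. Over all probe sets the shared rises were 65% of those in wild type and 54.5% of those in wox4-1. Among the genes that fell, 1 was common to both genotypes, 25% of the 4 in wild type and 16.7% of the 6 in wox4-1, and that was AT1G56670. Over all probe sets the shared falls were 75.9% and 59%. Whether the family differs from all probe sets in this was not tested. AT1G29660 rose by 1.94 (SE 0.11, limma adjusted p 8.68e-08) and AT3G16370 by 1.68 (SE 0.13, adjusted p 1.53e-06).

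**Figure D3:**
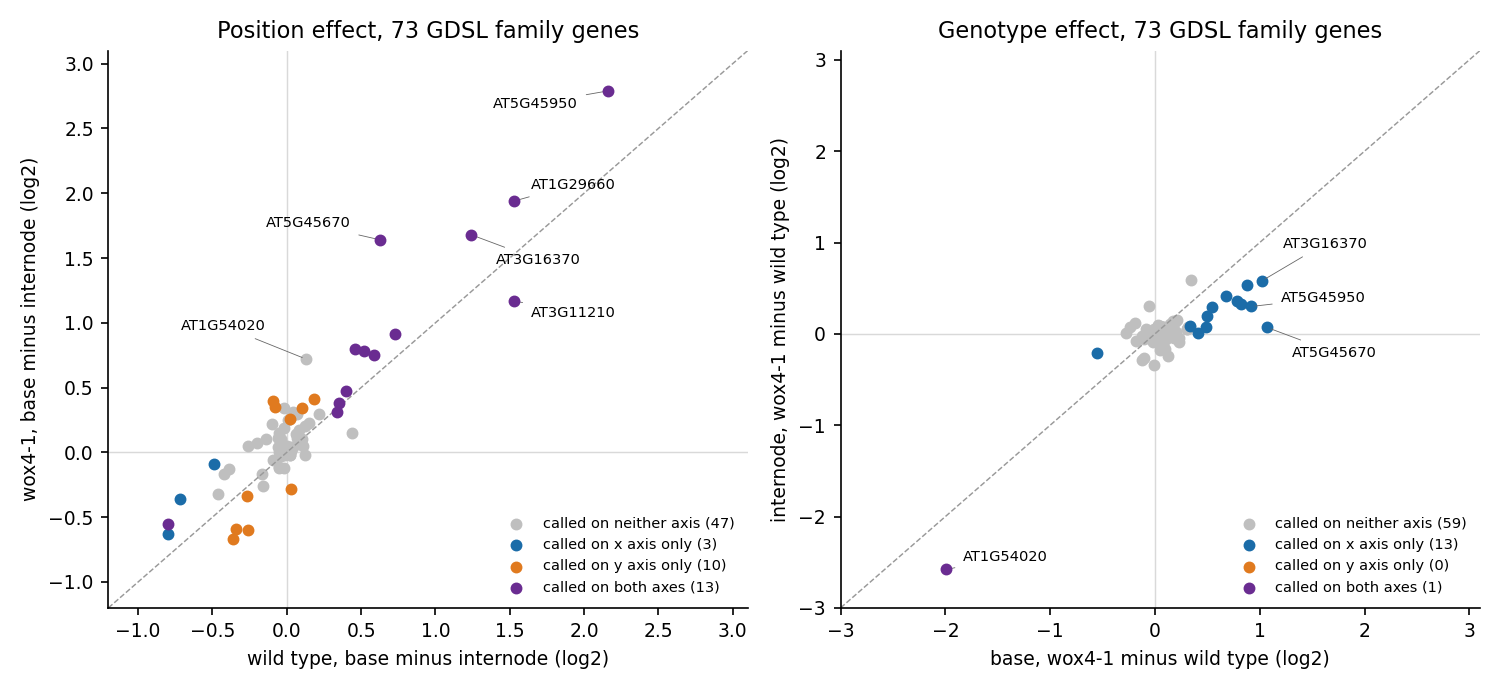
Log2 differences of 73 GDSL family genes, with position (left, base minus internode, wild type on x and wox4-1 on y) and genotype (right, wox4-1 minus wild type, base on x and internode on y). Each point is a gene, colours show where limma's adjusted p was under 0.05, and the dashed line marks equal differences. On the left 12 genes rise in both genotypes, and on the right AT1G54020 lies alone at -1.99 and -2.58 while 12 genes rise at the base.

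Between genotypes at the base more family genes were higher than lower in wox4-1, and AT1G54020 was among the lower. In wox4-1 12 of the 73 genes were higher and 2 lower (limma adjusted p under 0.05), or 16.4% and 2.74%, beside 2.52% and 2.51% of all probe sets. With median centring the family counts were again 12 and 2, while the share of higher calls over all probe sets went from 50.1% to 72.4%. The share of all probe sets past the threshold went from 5.04% to 6.06%. Without AT1G54020, AT5G45670 and AT5G45950, 10 of 70 (14.3%) were higher and 1 lower, and the median difference was 0.08 against 0.02 over all probe sets. AT3G16370 read 7.76, 7.52 and 7.46 at the wild-type base and 8.76, 8.55 and 8.48 at the wox4-1 base. Its groups did not overlap, and it rose by 1.02 (SE 0.13, limma adjusted p 0.0012). AT1G29660 rose by 0.78 (SE 0.11, adjusted p 0.00176), from a mean of 8.46 to 9.24. The gene that fell besides AT1G54020 was AT2G38180, with a log2 difference of -0.55 (SE 0.13, adjusted p 0.0269). AT2G38180 did not pass with only the arrays of the groups compared, nor without any single wild-type base array. It was also lost without both wild-type replicate 2 arrays and without wox4-1 base replicate 1 or 3. The comparisons by position and by genotype at the base share arrays, so AT3G16370 and AT1G29660, which passed in both, have their values given side by side only.

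In the internode AT1G54020 was the only listed family gene past the threshold between genotypes (1 of 73), where 0.242% of all probe sets passed. Without wox4-1 base replicate 1, 3 family genes passed there, beside 0.484% of all probe sets. Among the other 70 family genes 9 had an unadjusted p under 0.05. The share of all probe sets at that level is not given here, so nothing is read from this count. No family gene passed for the difference between the genotype effects (limma adjusted p under 0.05), and 1 probe set of all 22746 (0.0044%) did. Without wox4-1 base replicate 3 AT5G45670 passed, a value that rests on its internode level. Of the other 70 family genes 8 had an unadjusted p under 0.05 for this difference, again without the share of all probe sets. An effect past the threshold at the base and not in the internode is therefore not shown to differ between the positions.

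On chromosome 5, AT5G45950 has 3 listed family genes nearby, all measured. AT5G45910 and AT5G45960, the latter its neighbour, had group means of 2.98 to 3.09 and 3.47 to 3.77, and neither passed in any comparison. AT5G45910 lay within the range of the trp controls on all 12 arrays, so whether it followed AT5G45950 cannot be read. AT5G45920 went the other way from AT5G45950 in wild type, with a base lower than the internode by a log2 difference of -0.49 (SE 0.09, limma adjusted p 0.00248). It rose in wox4-1 at the base by 0.41 (SE 0.09, adjusted p 0.0256). On the other side the nearest gene with its own probe set was CHLI2, for a subunit of magnesium chelatase in chlorophyll synthesis, which rose in wox4-1 at the base by 0.40 (SE 0.10, adjusted p 0.0362) and did not pass with position.

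AT5G45670 lies elsewhere on chromosome 5, between the measured genes AT5G45650 and AT5G45690. AT5G45650 rose at the base by 1.22 in wild type (SE 0.11, limma adjusted p 7.43e-06) and by 0.82 in wox4-1 (SE 0.11, adjusted p 0.000169). Its genotype difference at the base was -0.03 (SE 0.11, adjusted p 0.905). AT5G45690 passed in no comparison.

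On chromosome 1, AT1G54020 lies in a run of family genes that includes GLIP2, GLIP3, GLIP5, GLL22, AT1G54010 (GLL23) and MVP1. GLL22 and GLL23 are known from the complex around the beta-glucosidase PYK10 of endoplasmic reticulum bodies, and MVP1 is needed for the shape of the endomembranes. None of these 6 had a named probe set of its own, so whether they followed AT1G54020 was not analysed here, and neither was cross-hybridisation between them. The nearest measured gene after it, AT1G54050, was higher at the base in wild type by 0.78 (SE 0.13, limma adjusted p 0.00108). Its genotype difference at the base was -0.46 (SE 0.13, adjusted p 0.0663), with groups of arrays that did not overlap, as for 11.6% of all probe sets in that direction. The measured gene before it, AT1G53970, had group means of 2.94 to 3.11, within the range of the trp controls.

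The genes with the most similar profiles were sought among 1524 probe sets of a single gene whose values span at least log2 1, by Pearson r over the 12 arrays. For AT1G54020 the closest was JAL23, with r = 0.961, whose product is a lectin of the jacalin type found in the PYK10 complex. JAL23 read 9.63, 9.94 and 9.59 at the wild-type base and 8.26, 8.77 and 8.49 at the wox4-1 base. In the internode it read 9.25, 9.33 and 9.57 in wild type and 8.40, 8.19 and 8.19 in wox4-1. The genotypes did not overlap at either position, as in AT1G54020. Next came AT2G34810, of the berberine bridge enzyme-like family (0.915), AT3G47800 (0.90), AT5G62550 (0.88) and AT5G49120 (0.87).

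For AT5G45670 the closest was TUB1, a beta-tubulin gene, with r = 0.97. The internode values of AT5G45670 lie within the range of the trp controls, so its r values and their order are not firm. TUB1 had group means of 7.41 at the wild-type base, 8.41 at the wox4-1 base, 6.68 in the wild-type internode and 7.05 in the wox4-1 internode. It was followed by AT1G53070 (0.967), AT5G62350 (0.963), AT1G78170 (0.959) and AT3G16370, the family gene described above (0.956). For AT5G45950 the closest was AT4G39320 (0.992), with 8.96, 9.50, 7.73 and 7.86 in the same order of groups. NANA, for an aspartyl protease (0.99), ARPN, for the copper protein plantacyanin (0.986), AT1G22490 (0.986) and AT1G30515 (0.984) came next.

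**Figure D4:**
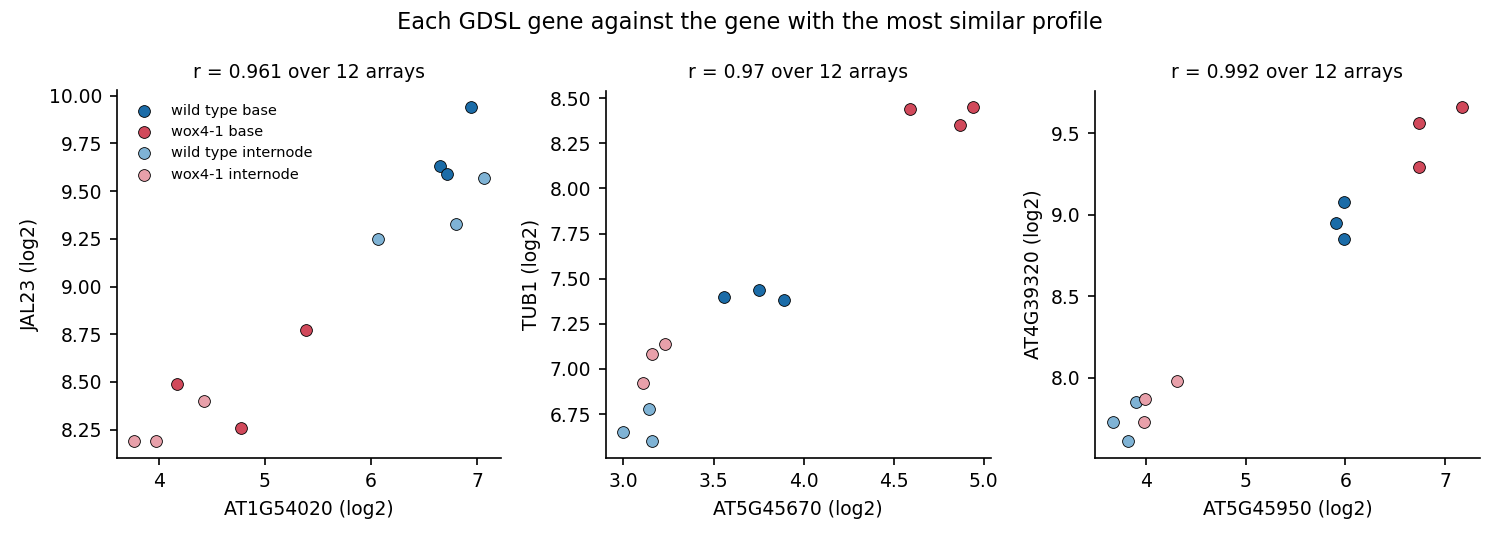
Log2 value of each GDSL gene (x axis) against that of the gene with the highest Pearson r to it (y axis), 1 point per array, coloured by group. AT1G54020 and JAL23 part by genotype into 2 clouds, whereas AT5G45950 and AT4G39320 part by position first. The r values are 0.961, 0.97 and 0.992 over arrays that fall into 4 groups and share their normalization. The internode values of AT5G45670 lie within the range of the trp controls.

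Other genes of lipid polymers could hardly be set beside these, since named probe sets covered 2 of 34 listed cutin and wax genes and 1 of 25 suberin genes. None of the 3 passed in the 4 comparisons of position and genotype by limma. With position in wox4-1 both cutin and wax genes had an unadjusted p under 0.05, but 1 was higher and 1 lower at the base. Between genotypes at the base 1 of them had such a p, and it was higher in wox4-1. The share of all probe sets at that level is not given here. WSD1, for a wax ester synthase, came nearest at the base, with a genotype difference of 0.71 (SE 0.20, limma adjusted p 0.0567). Of 15 genes listed for the PYK10 complex 7 were measured. At the base 1 of the 7 was lower in wox4-1, beside 2.51% of all probe sets, which was JAL23 with -1.21 (SE 0.14, adjusted p 0.000481), and none was higher, also none at an unadjusted p under 0.05. In the internode JAL23 was again the gene that was lower, with -1.13 (SE 0.14, adjusted p 0.00406). With position 3 of the 7 were higher at the wild-type base and 4 at the wox4-1 base, beside 9.6% and 11.4% of all probe sets, and JAL23 was in neither count, with 0.34 (SE 0.14) and 0.25 (SE 0.14). JAL23 read at least 8.19, and the others at most 5.17. NAI1 on all arrays (2.90 to 3.24) and NAI2 in the internode (2.80 to 3.16) lay within the trp range. PYK10 in the internode (3.05 to 3.43) reached into it. A fall in wox4-1 cannot be read at such levels, and the position differences of PYK10 and NAI2 have no firm size.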

How the data were processed

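RNA of 12 stem samples was hybridised as biotin-labelled aRNA to Affymetrix ATH1 arrays. The authors deposited log2 values, 1 per probe set and array, made with RMA per the submitters' processing notes. Its version is not given in the sources used here. RMA corrects background, normalizes quantiles across arrays and summarises the probes of a set. The values were used without further scaling. Of 22810 probe sets, 64 controls were set aside. The supplied probe table gave 13513 probe sets 1 gene, 503 several and 8730 none. For arrays, the number of replicates (3 per group) limits the precision.

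All 12 arrays entered 1 linear model of 4 group means in limma 3.58.1 (lmFit, eBayes) in R 4.3.3, and p-values were adjusted by Benjamini-Hochberg over 22746 probe sets. The fit was also run on simulated data with independent noise for each probe set and array. These held no pairs and no array-wide shifts, so the run does not bear on such features of the real arrays. The genes and lists were chosen with earlier results of these data known. The family list (110 genes) was written from general knowledge, the gene table naming GDSL in 9, and 7 probe sets shared by several genes were left out. Genes were named by rule: the 3 genes themselves, up to 4 called genes per list and comparison by size of difference, neighbours on the chromosome with their nearby family genes, and the 5 most similar profiles. AT1G56670, AT2G38180 and WSD1 were named after their values were seen.

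Equal replicate numbers were checked as pairs by correlating deviations from group means over probe sets. Base and internode of wild type correlated at 0.29, 0.59 and 0.31 for numbers 1 to 3. In wox4-1 the values were 0.14, 0.24 and -0.05, and between genotypes -0.06 to 0.06. No cut-off was set and unequal numbers were not correlated, so which arrays form pairs is not settled. The SEs and intervals given come from the fit without pairs. Under the replicate block within genotype the SE of AT1G54020 with position was 0.20 in both genotypes, against 0.29. That of AT5G45950 was 0.13, against 0.12. Alternatives covered scaling, a filter on dim probe sets, the arrays fitted, variance moderation, array weights, replicate blocks, a minimum fold and leaving out arrays.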

Additional observations from a re-analysis of the deposited data

How the results depend on the processing

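Every log2 difference of AT1G54020, AT5G45670 and AT5G45950 stayed within 1 replicate SD of its value under all alternatives that could be run. With a mean of at least log2 4 required, AT5G45670 was left out and has no value. Leaving out single arrays moved the genotype difference of AT1G54020 between -2.29 and -1.68 at the base and between -2.87 and -2.37 in the internode. Its difference with position in wild type ranged from -0.16 to 0.34, so its sign is not settled. By the threshold used for all probe sets, its difference with position in wox4-1 passed with median centring (0.81), with the replicate block within genotype (0.72) and without wox4-1 base replicate 3 (1.03), and in none of the other fits. Between genotypes at the base, 9 family genes passed with only the arrays of the groups compared, instead of 14. Over all probe sets 1.77% passed in that fit, against 5.04%. In the internode 2 passed with trend and robust moderation, 5 with array weights, 2 with the replicate block across groups and 1 to 3 without single arrays (3 without wox4-1 base replicate 1), instead of 1. Over all probe sets 0.387%, 0.8%, 0.255% and, without wox4-1 base replicate 1, 0.484% passed there, against 0.242%. For the difference between genotype effects 1 passed with median centring, 1 with trend and robust moderation and 0 to 1 without single arrays (1 without wox4-1 base replicate 3), instead of 0, and that was AT5G45670, whose internode level is at the controls. Over all probe sets 0.0308%, 0.0308% and, without wox4-1 base replicate 3, 0.0132% passed, against 0.0044%. A minimum difference of 0.5 left 13 of 23 base calls in wox4-1 by its construction. The cause of the other shifts was not tested. With the replicate block within genotype, 19 family genes passed with position in wild type and 26 in wox4-1, against 16 and 23. Over all probe sets 21.5% and 26.7% then passed, against 19.7% and 24.5%. Median centring gave 26 higher and 4 lower family genes with position in wox4-1, against 17 and 6, and 12 and 2 between genotypes at the base, as without it. Of all calls 67.5% and 72.4% were then higher in these comparisons, against 46.8% and 50.1%. The share of all probe sets past the threshold was then 30.9% and 6.06%, against 24.5% and 5.04%. The filter for a mean of at least log2 4 left 30 family genes. With position 9 of them were higher and 5 lower in wild type, and 13 and 9 in wox4-1. Between genotypes at the base 11 were higher and 2 lower. Over all probe sets under that filter 29.3%, 34.7% and 7.48% passed in these comparisons in turn. Of those, 49%, 44.5% and 47.6% were higher.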
